A study of Zea mays with 2 samples.

Results

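Broad regions of the maize hotspot list that lie in the interstitial parts of the chromosomes numbered 458, of 3126 listed regions in all. They were taken by length and place alone. A member was longer than 1500 bp, its midpoint was more than 20 Mb from either end of its chromosome, and it was more than 15 Mb from 1 fixed inner point per chromosome, placed to stand for the centromere. The far end of a chromosome was the end of its last listed region. The zone so defined held 2119 of the 3120 regions on chromosomes 1 to 10, and the broad regions were 21.6% of them. They were set against the 497 regions of the same zone that measured at most 900 bp, called narrow here. The other 1164 regions of the zone were 901 to 1500 bp long, and 6 regions listed under chromosome 0 were not used.

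The material was flowers of the inbred line B73, a standard maize genotype, with no treatment named. The MNase library came from nuclei that were sonicated for 5 s and digested with micrococcal nuclease, of which DNA near 150 bp was kept. The input library came from chromatin sonicated to 200 to 500 bp, and there was 1 library of each. Flowers hold many cell types besides the meiotic cells, and the assay was made on DNA of all of them. With 1 library per kind, no difference between MNase and input has a replicate check.

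Meiotic recombination begins with DNA double-strand breaks, which are made on purpose by the cell and then repaired. Breaks gather in short stretches called hotspots, and the packing of DNA into nucleosomes bears on where they form. Micrococcal nuclease cuts the linker DNA between nucleosomes, so that the reads mark DNA wrapped in them. In maize, crossovers are concentrated toward the chromosome ends, while the interstitial and central parts are rich in transposable elements. A long hotspot region can hold several nucleosomes, which makes its read density a measure over more of them than that of a short one.

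The table gives a deposited ratio for each region and 2 whole numbers. The ratio equalled 0.176 times the first number divided by the second plus 1 in all 3126 rows. The numbers are called numerator count and denominator count below. The table has no header, so neither is given to a library (MNase or input), and a higher ratio is not read as more nucleosomes. The genome build is not named, so positions are those of the table, counted from 1, and no gene or sequence was assigned to a region. What the 0.176 stands for is not stated in the sources used here. Summed over the 3120 regions, the numerator came to 162262 and the denominator to 28993, so the denominator set the precision of nearly every ratio.

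Most broad regions were not far above the length limit. Their median length was 1711 bp (quartiles 1594 and 1908 bp), 127 of them (27.7%) measured 1600 bp or less and 80 (17.5%) exceeded 2000 bp. Together they covered 821 kb, against 422 kb for the narrow regions, whose median length was 849 bp. At the limit itself, 3 members measured 1501 bp and had ratios of 0.419, 0.617 and 0.842. The longest regions left out measured 1500, 1500 and 1499 bp and had ratios of 2.45, 0.191 and 0.992. Values on both sides of the limit thus spread widely.

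Broad regions occurred in the interstitial zone of every chromosome. Over 1351 Mb of zone they were spaced at 3.39 per 10 Mb, from 2.84 on chromosome 7 to 4.04 on chromosome 10. Chromosomes 4, 1 and 2 carried 69, 68 and 62 of them, and chromosome 7 carried the fewest, 30. On the side of the inner point with the lower coordinates there were 153, which was 20.6% of the regions listed there, and on the other side 305, which was 22.2%. Broad regions made up 22.9% of the zone's regions at 15 to 30 Mb from the inner point, 22.6% at 30 to 60 Mb and 169 of 847 beyond 60 Mb. No trend along the arm was tested.

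No excess of broad regions in the interstitial zone over the rest of the chromosomes was detected. Outside it, 229 of 1001 regions (22.9%) were longer than 1500 bp. The share inside minus the share outside averaged -0.83 percentage points ± 4.94 (SD, n = 10 chromosomes), higher inside on 4 chromosomes and lower on 6. It ran from -5.26 on chromosome 3 to 8.25 on chromosome 6, with p = 0.600 by a two-sided exact test that flips the signs of the chromosomes' differences (sign-flip test; adjusted p = 0.600 over 8 tests).

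The read density of broad regions covered a wide range, and both counts rose and fell together from region to region. The numerator count per kb had a median of 40.2 (quartiles 22.9 and 57.5) and ran from 0 to 168. The denominator count per kb had a median of 7.13 (quartiles 3.83 and 10.1) and ran from 0 to 24.9. Across the 458 members, Spearman's rho between the densities was 0.81, and across the 497 narrow regions it was 0.78. Both densities come from the same stretch of genome, so the rho is given as a description only. How well reads can be placed in each region was not measured here.

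**Figure D1:**
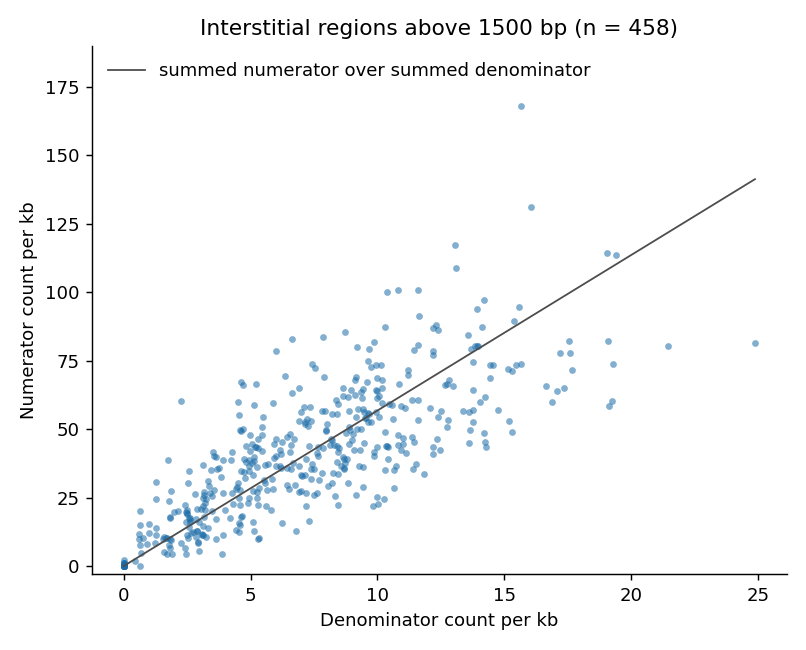
Numerator count per kb against denominator count per kb, 1 point for each of the 458 broad interstitial regions; the line has the slope of the summed counts, 5.68. Points widen around the line as both counts rise, a cluster of regions sits at the origin, and the region with the densest numerator stands at 168 per kb.

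Narrow regions had nearly the same read density once all reads were summed. The summed numerator was 42.1 per kb in broad and 41.2 per kb in narrow regions, and the summed denominator was 7.41 and 7.32 per kb. Medians over regions differed more, with a numerator of 40.2 per kb in broad and 35.5 per kb in narrow regions. The per-chromosome difference in median numerator density was 4.61 per kb ± 5.68 (SD, n = 10 chromosomes, broad minus narrow), higher in broad regions on 7 of 10 chromosomes. The exact sign-flip test gave p = 0.0352, which did not hold after adjustment over 8 tests (adjusted p = 0.141) and, unadjusted, not without chromosome 1, 3, 4, 6, 7, 8 or 10. With means in place of medians the difference turned to -0.59 per kb. For the denominator the median difference was 0.55 per kb ± 1.38 (SD, n = 10 chromosomes), higher on 7 of 10, short of the threshold (exact sign-flip test, p = 0.219, adjusted p = 0.292). It too turned, to -0.11 per kb, with means, and it was -0.67 per kb with the zone drawn 30 Mb from the ends and 20 Mb from the inner points.

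More counts stood behind the ratio of a broad region than behind that of a narrow one. The median broad region held 71 numerator and 12 denominator counts, and the median narrow region 30 and 5. Fewer than 20 counts in all were found in 36 broad regions (7.86%) and in 136 narrow ones (27.4%). A denominator below 5 was found in 65 broad (14.2%) and 213 narrow regions (42.9%). The ratios of narrow regions therefore rest on fewer counts.

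The deposited ratio of broad regions had a median of 0.903 with quartiles of 0.672 and 1.18. In narrow regions the median was 0.773 with quartiles of 0.529 and 1.15. The median was higher in broad regions on 9 of 10 chromosomes, by 0.125 ± 0.104 (SD, n = 10 chromosomes). The largest difference was on chromosome 7, with medians of 0.997 and 0.705, followed by chromosome 1, with 0.957 and 0.749. Chromosome 5 went the other way, with 0.873 in broad and 0.933 in narrow regions. The exact sign-flip test gave p = 0.00781, and after adjustment over 8 tests p = 0.0625, short of the 0.05 threshold. An association of the deposited ratio with length had been seen in these data when the classes were set, so this is not independent evidence of it.

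The ratio of summed counts did not show the difference seen in the median ratio. The summed counts of broad regions gave 1.00 (95% exact interval 0.974 to 1.03) and those of narrow regions 0.993 (0.956 to 1.03), intervals that cover counting error only and treat reads as independent. Per chromosome the difference in the ratio of sums averaged -0.00419 ± 0.101 (SD, n = 10 chromosomes), higher in broad regions on 5 chromosomes and lower on 5 (exact sign-flip test, p = 0.873). This comparison was added after the data had been seen. With the mean ratio per region the difference was 0.0553 (p = 0.266 by the same exact test). The 1 added to the denominator multiplies a ratio by 0.923 at the broad regions' median denominator of 12 and by 0.833 at the narrow regions' median of 5. Regions with a denominator count of at least 5 were also compared, a limit that itself selects on the denominator. It left out 14.2% of broad and 42.9% of narrow regions, keeping 393 and 284. With the added 1, the medians of the kept regions were 0.914 in broad and 0.745 in narrow regions. Without the limit they were 0.903 and 0.773. Over chromosomes the difference in median ratio was 0.143 with the added 1 and 0.129 without it. Broad regions were higher on 9 of 10 chromosomes each time (exact sign-flip test, p = 0.00391 for both, unadjusted). The limit removes unequal shares of the classes by a term of the ratio itself. These p-values therefore cannot show whether the added 1 bears on the difference. These comparisons were also added after the data had been seen.

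**Figure D2:**
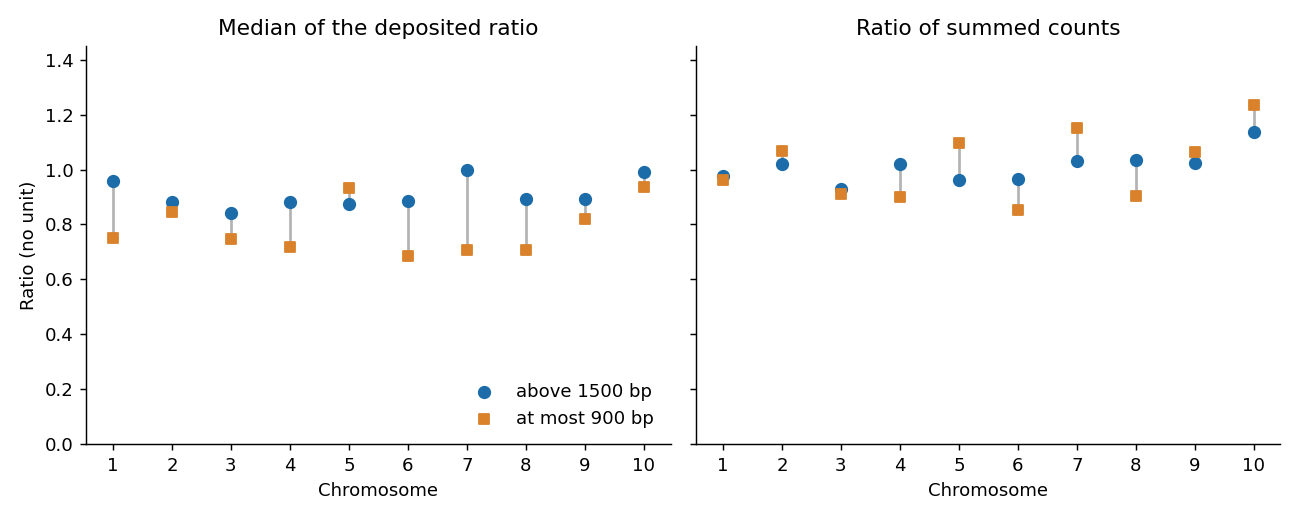
Median deposited ratio (left) and ratio of summed counts (right) on each chromosome, for broad (circles) and narrow (squares) interstitial regions, joined by a line. On the left the broad regions lie higher on 9 of 10 chromosomes, and on the right on 5 of 10.

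Length classes of the zone show the same contrast. The median deposited ratio was 0.773 up to 900 bp, 0.846 at 901 to 1200 bp, 0.869 at 1201 to 1500 bp and 0.909 at 1501 to 1800 bp. It was 0.882 at 1801 to 2100 bp (111 regions) and 0.912 above that (57 regions). The ratio of summed counts in the same classes ran from 0.951 to 1.06 in no order of length. The lowest of these was at 1801 to 2100 bp (0.904 to 1.00, 95% exact interval) and the highest above 2100 bp (0.996 to 1.14). Among the 458 members, Spearman's rho between length and deposited ratio was 0.04, and it was positive on 6 of 10 chromosomes. Within the broad regions the ratio was thus almost unrelated to length.

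**Figure D3:**
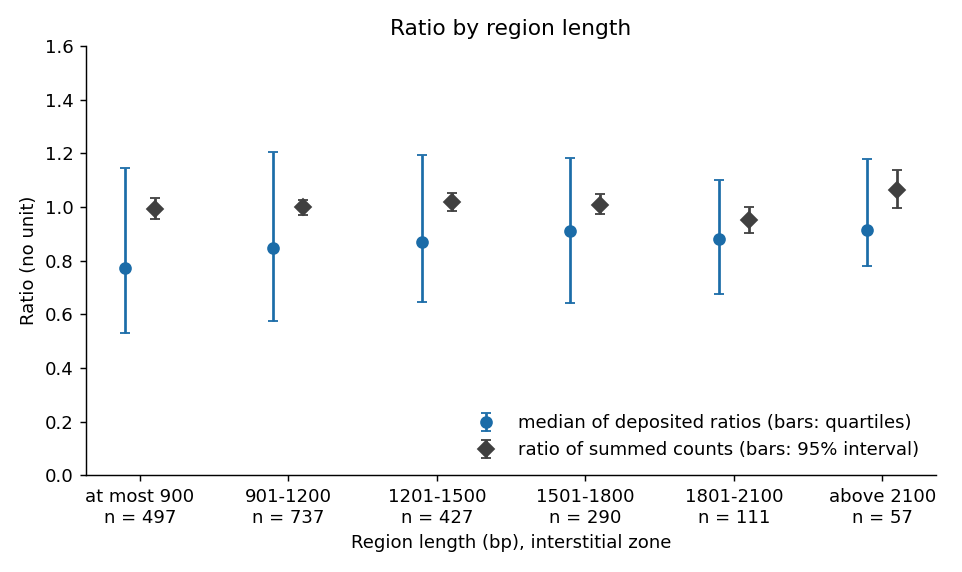
Deposited ratio by length class of interstitial regions, as the median with quartiles (circles), beside the ratio of summed counts with its 95% exact interval (diamonds). The medians go from 0.773 at the left to 0.912 at the right, and the ratios of sums stay between 0.951 and 1.06.

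The deposited ratios of broad regions had shorter tails on both sides, as the following shares show without a test. A ratio above 2 occurred in 12 broad (2.62%) and 28 narrow regions (5.63%), and a ratio below 0.5 in 49 (10.7%) and 115 (23.1%). Over all 3120 regions these shares were 3.94% and 17.1%. In broad regions outside the zone they were 2.62% and 6.99%, and in narrow regions outside it 3.42% and 22.6%. The shorter lower tail is thus not particular to the zone. For ratios above 2 the shares outside, from 6 broad and 8 narrow regions, were closer together, so the same is not said of that tail. Narrow regions also hold fewer counts, and what that adds to their tails was not tested. The 95th percentile was 1.75 in broad and 2.06 in narrow regions. The interquartile range was 0.503 and 0.617. Taken per chromosome, the range was narrower in broad regions on 8 of 10, by a mean of -0.06 ± 0.13 (SD, n = 10 chromosomes, broad minus narrow), short of the threshold (exact sign-flip test, p = 0.145, adjusted p = 0.289). Chromosome 8 differed most from the others, with a range wider by 0.179 in broad regions. Without it the mean was -0.09 (exact sign-flip test, p = 0.0195, unadjusted). That chromosome was picked by its value, so this p-value is no support for a difference. Other omissions gave p-values up to 0.281 by the same test.

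A ratio of 0 was found in 13 broad regions (2.84%) and in 31 narrow ones (6.24%). Over all 3120 regions the share was 4.23%. In 12 of these 13 broad regions both counts were 0, so that the ratio of 0 rests on no counts there. The same held for 26 of the 31 narrow regions and for 118 of the 132 regions at 0 on all numbered chromosomes. The exception among the broad regions lay at chr2:69669449-69671049, with 1 denominator count, which allows a ratio of up to 6.88. The 13 were spread over 5 chromosomes, with 4 on chromosome 2, 3 each on chromosomes 8 and 9, 2 on chromosome 7 and 1 on chromosome 10. The longest of them was chr10:34107264-34109455, 2192 bp without a count. Per chromosome the share at 0 was lower in broad regions on 7 of 10 and equal on chromosome 9, by a mean of -3.17 percentage points ± 4.51 (SD, n = 10 chromosomes). This fell short of the threshold (exact sign-flip test, p = 0.0625, adjusted p = 0.167). It passed without chromosome 8 (-4.29 points, exact sign-flip test, p = 0.0156, unadjusted), where 9.38% of broad and 2.44% of narrow regions were at 0. That chromosome went furthest the other way, so this p-value is no support for a difference. Other omissions gave p-values up to 0.125 by the same test.

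The longest members had ratios close to those of the rest, with 1 exception. The longest region on chromosomes 1 to 10, chr7:74237825-74241752, spanned 3928 bp with 226 numerator and 37 denominator counts. Its ratio was 1.05. Next came chr6:20507470-20510614 with 3145 bp and a ratio of 0.823, and chr4:171106098-171109036 with 2939 bp and 0.702. The latter held 52 denominator counts, the most of any region on chromosomes 1 to 10. Of the 10 longest, 9 had ratios between 0.621 and 1.13. The exception was the shortest of the 10, chr10:74032339-74034956, with 2618 bp, 440 numerator and 41 denominator counts and a ratio of 1.85. No region on chromosomes 1 to 10 held more numerator counts, and no broad interstitial region had a denser numerator. Without the added 1 its ratio was 1.89, with a 95% exact interval from 1.37 to 2.67.

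The highest ratios rested on few denominator counts. The region at chr6:107178105-107179876 had the highest ratio of the broad regions, 3.77, from 107 numerator and 4 denominator counts. Without the added 1 its 95% exact interval ran from 1.79 to 17.6. The next were chr4:76992747-76994457 with 2.91, from 66 and 3 counts, and chr1:207673739-207675326 with 2.88, from 49 and 2 counts. Their intervals ran from 1.27 to 19.3 and from 1.13 to 36.7. The order among these 3 is therefore not firm.

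At the low end, 3 broad regions shared the lowest ratio above 0, 0.176. In chr1:178462802-178464574 and chr5:121104190-121105846 it came from 1 numerator and 0 denominator counts, which leaves the ratio undetermined. In chr3:150019665-150021479 it came from 8 and 7 counts. Without the added 1 its ratio was 0.202, with a 95% exact interval from 0.0639 to 0.653. The next lowest upper bounds of an interval were those of chr2:52335699-52337533, with 40 and 18 counts (interval 0.220 to 0.726), and of chr6:142751271-142753218, with 48 and 20 counts (0.246 to 0.753). These intervals lie below the ratio of summed counts over all regions, 0.987. The regions were picked for low values, so this is no support for a difference.

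For a small share of broad regions the 95% exact interval, taken for each region alone, did not include that overall ratio. Of the 446 with at least 1 count, 21 (4.71%) had a 95% exact interval wholly above 0.987, against 3.83% of all 3002 regions with a count. A further 22 (4.93%) had one wholly below it, against 5.16% of all regions. Both shares are near the background, and single intervals miss some regions through counting error alone, so they are not a result about broad regions, which also hold more counts (median 86) than regions in general (median 55). Among narrow regions the shares were 4.03% and 3.61%.

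No difference in spacing between broad and narrow regions passed the threshold. The gap to the nearest listed region of any length had a median of 174 kb (quartiles 69.9 and 417 kb) for broad and 213 kb (74.1 and 452 kb) for narrow regions. By chromosome the median gap of broad regions ran from 81.0 kb on chromosome 7 to 263 kb on chromosome 2. The log2 ratio of the median gaps averaged -0.26 ± 0.70 (SD, n = 10 chromosomes, broad over narrow), and broad regions had the shorter gap on 8 of 10 chromosomes. This fell short of the threshold (exact sign-flip test, p = 0.264, adjusted p = 0.301). Chromosome 9 went furthest the other way, with 1.23 on the log2 scale. Without it the mean was -0.42 (exact sign-flip test, p = 0.0391, unadjusted). That chromosome was picked by its value, so this p-value is no support for a difference. Other omissions gave p-values up to 0.449 by the same test. A neighbour within 50 kb was found for 85 broad (18.6%) and 79 narrow regions (15.9%). Per chromosome these shares differed by 3.36 percentage points ± 7.35 (SD, n = 10 chromosomes), short of the threshold (exact sign-flip test, p = 0.199, adjusted p = 0.292). With broad set above 1800 bp the difference was 9.21 points (exact sign-flip test, p = 0.0449, unadjusted). The share did not grow steadily with length. It was 15.9% at 1501 to 1800 bp, 26.1% at 1801 to 2100 bp (111 regions) and 17.5% above that (57 regions).

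**Figure D4:**
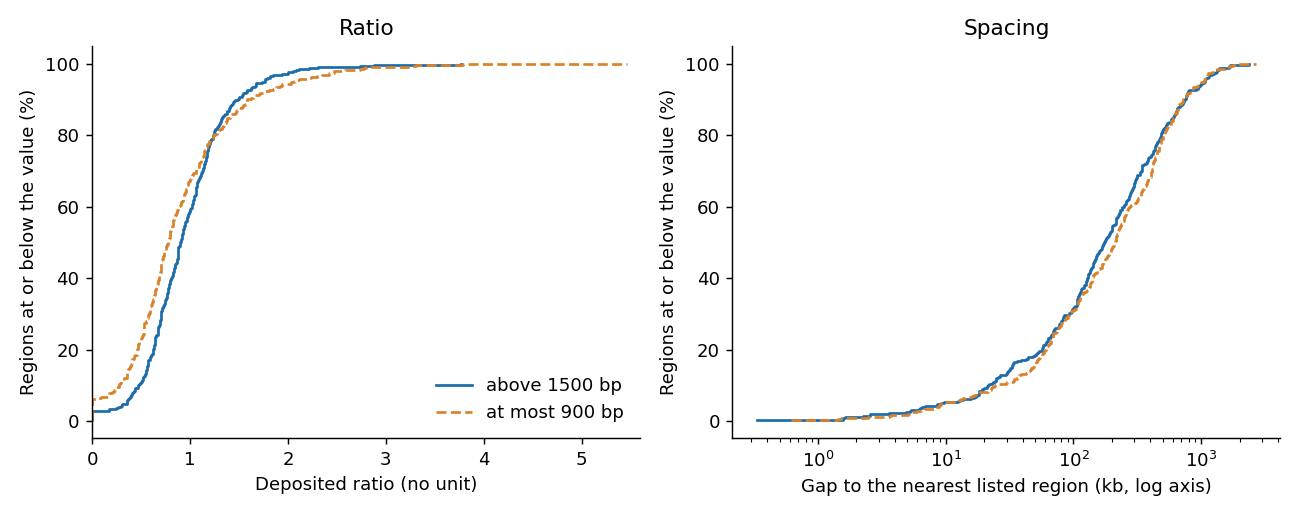
Cumulative share of broad (solid) and narrow (dashed) interstitial regions by deposited ratio (left) and by gap to the nearest listed region on a log axis in kb (right). The broad curve of the ratio is the steeper one and the curves cross above 1; the curves of the gap run close together, with medians of 174 and 213 kb.

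Broad regions lay next to regions of all lengths. The nearest listed region was itself longer than 1500 bp for 110 broad regions (24.0%), for 21.1% of narrow regions and for 468 of all 2119 regions of the zone (22.1%). These shares are given without a test. Between successive broad regions of the zone on a chromosome the median gap was 2012 kb, and 4 of 448 such gaps were under 10 kb. These gaps include those across the part left out around each inner point, and the widest was 43558 kb.

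The closest broad regions came in 3 pairs under 3 kb apart. On chromosome 5, chr5:63285634-63287235 and chr5:63288809-63290310 were 1.57 kb apart, with ratios of 0.617 and 1.00. On chromosome 7, chr7:105516231-105517736 and chr7:105519983-105522177 were 2.25 kb apart, with ratios of 0.752 and 1.13. On chromosome 1, chr1:279067337-279068896 and chr1:279071468-279073207 were 2.57 kb apart, with ratios of 1.18 and 1.54.

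The ratios of broad regions were also taken by their place within the zone. The median ratio was 0.929 at 15 to 30 Mb from the inner point, 0.901 at 30 to 60 Mb and 0.882 beyond, and the ratios of summed counts were 1.04, 1.01 and 0.962. On either side of the inner point the medians were 0.894 and 0.911. Broad regions outside the zone had a median ratio of 0.893 and a ratio of summed counts of 0.989. These values are given without a test. Leaving out the 13 regions at 0 and the highest and lowest ratios named above, the ratios of broad regions lay between 0.247 and 2.73.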

How the data were processed

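The authors' deposited table has 1 row per region, without a header. The submitters' processing notes name CASAVA 1.8 and BWA but not what each was used for; peak caller and build are not stated in the sources used here. The linear ratio, deposited by the authors, equalled 0.176 times the first whole number over the second plus 1 in 3126 of 3126 rows (tolerance 1e-05). The whole numbers carry no library name. They were read as the terms of the ratio and given to no library, and no count model was run on them. The earlier treatment of these data left them unused.

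Members and classes were chosen with earlier results of these data known. Regions are not replicates, so broad and narrow regions were compared within chromosomes and tested over the 10 chromosomes by a two-sided exact sign-flip test (a permutation test over all 1024 sign patterns; smallest p 0.00195), with Benjamini-Hochberg adjustment over 8 tests. A chromosome needed at least 5 regions in each class. Adjusted p-values under 0.05 were to be called, and none was. These tests describe the spread between chromosomes of 1 pair of libraries, not between plants. The test was checked on deposited ratios shuffled over the regions, with and without an added shift. Shuffling removes the tie between length and counts, so the check does not cover an effect of count depth on the ratio. Intervals are Clopper-Pearson on numerator and denominator counts, and cover counting error only. Named regions were the 10 longest, the 3 highest, the 3 lowest above 0, those at 0, the 3 closest pairs and 3 on either side of the length limit; the 2 next lowest upper bounds were added after their values were seen. The RefSeq gene table is of another named assembly and was not used. Python 3.11.15, numpy 2.4.6, pandas 2.3.3 and scipy 1.17.1 were used.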

Additional observations from a re-analysis of the deposited data

How the results depend on the processing

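By the unadjusted exact sign-flip test, 101 of 122 alternatives kept direction and side of 0.05; 7 more pooled the regions of all chromosomes, have no test and moved by less than 1 SD between chromosomes. After adjustment nothing was called, so passing or losing 0.05 below is unadjusted. The higher median ratio of broad regions lost 0.05 with means (0.0553) and with summed counts (-0.00419). It passed under the other tested alternatives. The higher median numerator density lost 0.05 with the zone drawn 30 Mb from the ends and 20 Mb from the inner points (3.43 per kb), with narrow set at up to 1100 bp (1.72) and without any 1 of chromosomes 1, 3, 4, 6, 7, 8 and 10 (all 10 omissions: 3.70 to 5.54), and turned with means (-0.59). The denominator density passed with broad set above 1800 bp (1.33 per kb) and turned with the 30 and 20 Mb limits (-0.67) and with means (-0.11). The share at 0 passed with limits of 10 Mb (-3.28 points) and without chromosome 8 (omissions: -4.29 to -2.58 points). The spread of the ratio passed without chromosome 8 (omissions: -0.091 to -0.042). The gap passed with narrow at up to 1100 bp (-0.36 on the log2 scale) and without chromosome 9 (omissions: -0.42 to -0.18). The share with a neighbour within 50 kb passed with broad above 1800 bp (9.21 points). The causes of these changes were not tested. The ratio of sums and the denominator limit were chosen after seeing the data. That limit left out 14.2% of broad and 42.9% of narrow regions, so passing under it is no support for a difference. No pairing of replicate samples was possible because each kind has 1 library. The pairing used was that of broad and narrow regions within chromosomes. Depth limits single ratios: 65 of 458 broad regions have a denominator count below 5.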
